A study of Mus musculus with 4 samples.

Results

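The transcripts examined here are those of 10 cytokine genes by which helper T cells act on other cells, namely Ifng, Il2, Il4, Il10, Il13, Il17a, Il21, Tnf, Ltb and Tgfb1. They form a list of names, with no measured value in its rule, and were followed in resting CD4 T cells that lack the Ifitm gene family and in wild-type (WT) cells. Each of the 10 was represented by the probe set of highest mean among those annotated to it alone, which was its sole such probe set in each case, out of 19937 genes so represented. RNA came from CD4 T cells of the spleens of mice 6 to 8 weeks old, and was measured on 4 Affymetrix whole-transcript arrays, 2 of Ifitm-/- cells and 2 of WT cells. The Ifitm-/- mice, which the study calls IfitmF-deficient and describes as on a C57BL/6 background, lack the whole gene family in every tissue. No cell type specific deletion was used, and the sex of the mice was not given in the sources used here. Neither genotype was stimulated. Spleen cells of both were treated with an ammonium chloride solution, which lyses red cells. They were then put through the EasySep system to remove cells other than CD4 T cells. Transcripts of other blood cells were still measured, as given below. The labels call the cells naive or resting, but nothing in this purification removes memory or regulatory T cells. The replicates of a genotype were biological, each from its own purification, with the cells of a pair of mice mixed for an array.

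Helper T cells are known for the cytokines they secrete after activation. Th1 cells make interferon-γ (Ifng), Th2 cells make interleukin (IL)-4 and IL-13, Th17 cells make IL-17A, follicular helper cells make IL-21, and regulatory and several effector T cells make IL-10, which restrains inflammation. IL-2 drives the growth of T cells, tumour necrosis factor (Tnf) is inflammatory, lymphotoxin-β (Ltb) is a membrane protein needed to build lymphoid tissue, and transforming growth factor-β1 (Tgfb1) is suppressive. At rest the signature cytokines are kept largely silent, whereas Ltb and Tgfb1 are known to be transcribed constitutively in lymphocytes.

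Values are RMA intensities on the log2 scale, so a difference of 1 is a doubling. Intensities of different probe sets depend on their probes. The sums over marker genes, the most abundant genes named and the background scale below set different probe sets together. They are therefore rough guides only. All changes are given as Ifitm-/- minus WT. A gene was called where limma's adjusted p over all 34760 probe sets was under 0.05, and "rose" and "fell" are used of called genes only. The deletion was seen on the arrays: the means of all probe sets of Ifitm1, Ifitm2 and Ifitm3 lay at 4.48 to 5.97 in Ifitm-/- cells and at 6.56 to 9.08 in WT cells, each of them called lower, while Ifitm5 and Ifitm6 were not called. Markers of CD4 T cells were high in both genotypes, but 4 of 9 were called (44.4%, against 8.57% of all genes). Cd28 fell (-0.74, adjusted p = 0.0202), while Cd3d (0.59, adjusted p = 0.0284), Cd3g (0.59, adjusted p = 0.0304) and Il7r (0.46, adjusted p = 0.0472) rose. Cd3e averaged 12.11 in Ifitm-/- and 12.12 in WT cells and Il7r 12.23 in Ifitm-/- and 11.77 in WT cells, and Cd4, at 11.75 in Ifitm-/- and 11.48 in WT cells, was not called (adjusted p = 0.141). Among markers of other blood cells, 1 of 6 neutrophil genes was called (16.7%, against 8.57% of all genes). This was Retnlg, which rose (7.07 in Ifitm-/- and 5.25 in WT cells, adjusted p = 0.0136), its WT value lying within the background range given below. Camp, also of neutrophils, was at 5.75 in Ifitm-/- and 5.69 in WT cells. Of the 6 neutrophil changes 0 were below 0. Their summed linear level was 341 and 394 units in Ifitm-/- cells and 227 and 225 units in WT cells. Of the erythroid markers, 0 of 3 were called, with Slc4a1 at 11.90 in Ifitm-/- and 10.21 in WT cells and Alas2 at 10.41 in Ifitm-/- and 10.42 in WT cells. Epb42, the third, averaged 8.72 in Ifitm-/- and 6.87 in WT cells (adjusted p = 0.16). The erythroid sums were 5893 and 5325 units in Ifitm-/- cells and 2510 and 3564 units in WT cells. Transcripts of sex-linked genes parted the genotypes, with Xist lower by 6.64 and the Y-linked Eif2s3y, Uty and Kdm5d higher in Ifitm-/- cells, so sex and genotype cannot be told apart in any comparison below. In bulk RNA fewer cells of a type and less RNA per cell cannot be told apart either.

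Of the 10 cytokine genes, Il10 and Ifng fell and Ltb rose in Ifitm-/- cells, while Il2, Il4, Il13, Il17a, Il21, Tnf and Tgfb1 were not called. That is 3 of 10, against 8.57% of all 19937 genes called in either direction, 3.61% lower and 4.96% higher, and against 8.43% of all 34760 probe sets, 3.95% lower and 4.48% higher. At an unadjusted p under 0.05 in limma, Il21 joined the genes that were lower, against 25.8% of all genes, 11.5% lower and 14.3% higher. By the methods' t-test, unadjusted, it was Il17a that joined Il10, Ifng and Ltb, against 21.8% of all genes, 10.3% lower and 11.4% higher. The study also asked for a fold over 2 and for values spanning 250 linear units or more, conditions that were met by 1.28% of all genes, 0.853% lower and 0.431% higher, and by 0 of the 10. The arrays of the genotypes did not overlap for 7 of the 10 genes, 6 of them lower and 1 higher in Ifitm-/- cells, but this held for 58.7% of all genes as well, 30.8% lower and 27.9% higher. The median change of the 10 genes was -0.17, against -0.0197 over all genes, and 9 of the 10 changes were below 0, against 53.7% of all genes. The 10 genes were taken up with earlier results of these arrays known, so these counts describe the list and do not test it.

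**Figure D1:**
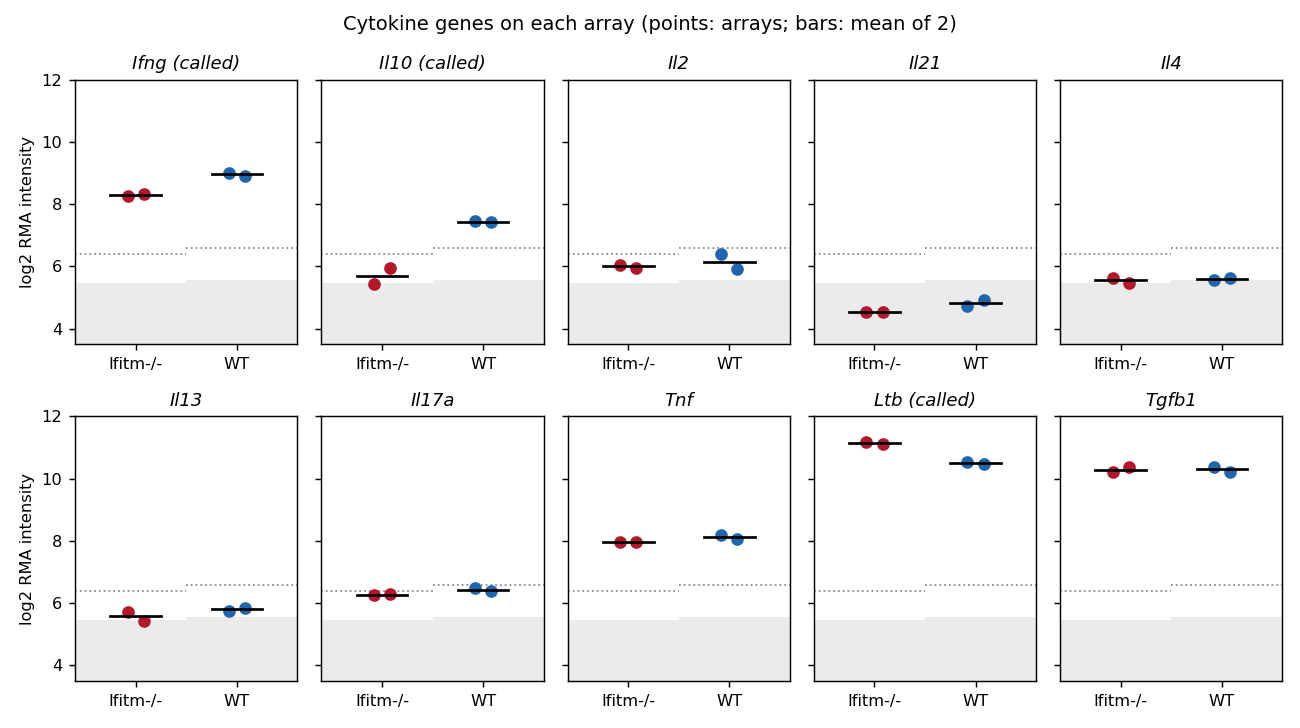
Log2 RMA intensity (y axis) of the 10 cytokine genes on the 2 Ifitm-/- arrays (red, left) and the 2 WT arrays (blue, right); bars are means, grey areas reach up to the 95th percentile of chemosensory receptor probe sets in that genotype and dotted lines mark their 99th percentile. Il10 lies at 5.43 and 5.95 in Ifitm-/- cells, against 7.45 and 7.43 in WT cells, while Ltb lies higher in Ifitm-/- cells.

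How far each transcript stood above background was judged on probe sets of olfactory, vomeronasal and trace amine receptors, which are known from sensory tissue. The 1217 such probe sets had a median of 4.15 in Ifitm-/- and 4.18 in WT cells, a 95th percentile of 5.46 and 5.56, and a 99th percentile of 6.39 and 6.59, in the same order. At or below the 95th percentile lay 1 of the 10 cytokine genes in each genotype, Il21. Il4 and Il13 lay barely above it, by 0.09 and 0.11 in Ifitm-/- cells and by 0.03 and 0.25 in WT cells. Below the 99th percentile lay 6 of the 10 in Ifitm-/- cells, namely Il2, Il4, Il10, Il13, Il17a and Il21, and 5 in WT cells, the same genes without Il10. A further measure of background, the probe sets of the deleted Ifitm genes in Ifitm-/- cells, ran from 4.48 to 6.33 when Ifitm5 and Ifitm6 are included. Il2, Il4, Il10, Il13, Il17a and Il21 in Ifitm-/- cells therefore had values that a deleted gene can also give. Ifng, Tnf, Ltb and Tgfb1 stood clear of background in both genotypes: at most 0.0822% of the chemosensory receptor probe sets were as bright.

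**Figure D2:**
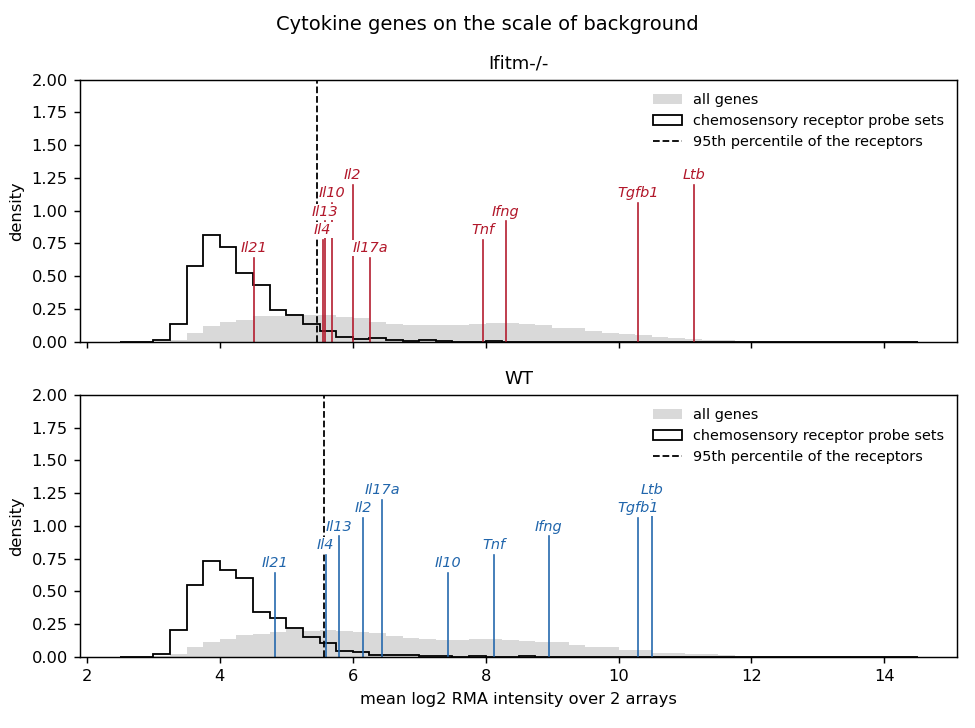
Distribution of the mean log2 RMA intensity over 2 arrays (x axis) in Ifitm-/- cells (top) and WT cells (bottom) for all genes (grey) and for chemosensory receptor probe sets (outline), as a density (y axis), with the 10 cytokine genes as coloured lines. The dashed line is the 95th percentile of the receptors, 5.46 in Ifitm-/- and 5.56 in WT cells; Il21 lies left of it in both.

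Il10, the gene of the suppressive cytokine, showed the largest change of the 10. Its log2 intensity was 5.43 and 5.95 on the Ifitm-/- arrays, against 7.45 and 7.43 on the WT arrays. Both WT arrays were alike and lay well above both Ifitm-/- arrays, which differed from each other by more than the WT arrays did. On the linear scale these are 43.0 and 62.0 units in Ifitm-/- cells and 175.0 and 172.6 units in WT cells. The change was -1.75 with a 95% interval of -2.27 to -1.23 (adjusted p = 0.0215). This is a 3.37-fold difference with an interval of 2.35-fold to 4.83-fold, set against an Ifitm-/- value in the range of background, so the true difference may be larger. Of the chemosensory receptor probe sets, 3.37% were at least as bright as Il10 in Ifitm-/- cells and 0.164% in WT cells.

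Il10 is made by regulatory T cells, memory T cells, B cells and myeloid cells, among others, and the markers of these cells were set beside it. Of 6 regulatory T cell markers Ctla4 and Tnfrsf18 fell, Il2ra rose and 3 were not called (50% called, against 8.57% of all genes). Foxp3, the defining factor of the lineage, was at 9.19 and 9.17 in Ifitm-/- cells, against 8.94 and 8.97 in WT cells (adjusted p = 0.161). Ikzf2 changed by -0.42 and Nrp1 by -0.27, and neither was called (adjusted p = 0.11 and 0.142). Of the 6 changes 4 were below 0. The summed linear level of the 6 was 4329 and 4565 units in Ifitm-/- cells and 6024 and 6633 units in WT cells. Of 8 measured markers of memory and helper T cells 5 fell and 0 rose (62.5%, against 3.61% of all genes called lower). Icos, Zbtb16, Ccr7, Cd44 and Pdcd1 were those that fell. Cxcr5, Ccr6 and Cxcr3 changed by -0.36, -0.26 and -0.1 and were not called. The summed linear level of all 8 was 6824 and 7054 units in Ifitm-/- cells and 12625 and 12776 units in WT cells. No marker was near background in both genotypes. Most of this sum was Ccr7, which naive and central memory cells share, and without it the other 7 genes summed to 2308 and 2555 units in Ifitm-/- cells and 4463 and 4430 units in WT cells. The part of this shift in the fall of Il10 was not tested. B cell markers had a summed level of 2611 and 4201 units in Ifitm-/- cells and 8714 and 3139 units in WT cells, highest on WT replicate 1, where Il10 was 7.45, against 7.43 on the other WT array. All 7 B cell changes were below 0, with a median of -0.48, and 0 of the 7 markers were called. The most abundant were Cd74, at 10.34 in Ifitm-/- and 11.35 in WT cells, and Cd79b, at 9.57 in Ifitm-/- and 9.95 in WT cells. Of the myeloid markers, 0 of 8 were called and their summed level overlapped, with 2812 and 5615 units in Ifitm-/- cells and 4637 and 2725 units in WT cells. Lyz2 averaged 10.22 in Ifitm-/- and 8.87 in WT cells, and Csf1r 10.07 in Ifitm-/- and 10.20 in WT cells. Plasma cell markers were lower, with sums of 2781 and 2609 units in Ifitm-/- cells and 6311 and 5104 units in WT cells. Of these 5 genes only Xbp1, which other cells express too, was called (20%, against 8.57% of all genes). Jchain averaged 10.57 in Ifitm-/- and 11.30 in WT cells. The part of regulatory T cells, B cells, myeloid cells and plasma cells in the fall of Il10 was not tested.

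Ifng, the signature cytokine of Th1 cells, fell as well. It was at 8.27 and 8.33 on the Ifitm-/- arrays, against 9.0 and 8.91 on the WT arrays. The arrays of each genotype lay within 0.1 log2 units of each other and the genotypes did not overlap. The change was -0.65 (95% interval -0.88 to -0.43, adjusted p = 0.0273), so that Ifitm-/- cells held 63.6% of the WT level, with an interval of 54.4% to 74.3%. Natural killer cells also make interferon-γ. Of 7 measured markers of these cells Nkg7 fell and 0 rose (14.3% called, against 8.57% of all genes), although only 2 of the 7 changes were below 0. Nkg7, which cytotoxic T cells share, averaged 9.66 in Ifitm-/- and 10.55 in WT cells, whereas Klrd1 averaged 8.88 in Ifitm-/- and 7.77 in WT cells and was not called (adjusted p = 0.0683). The summed level of the 7 was 2369 and 2194 units in Ifitm-/- cells and 2871 and 2328 units in WT cells. Nkg7 was the largest term of this sum on every array. Of the others, Klrd1, Ncr1, Klrb1c and Klrk1 changed by 1.11, 0.75, 0.58 and 0.35. Prf1 changed by 0.02 and Gzma by -0.30, and none of these was called. Neither of the CD8 T cell markers was called, with sums of 435 and 425 units in Ifitm-/- and 504 and 341 units in WT cells. The 2 went opposite ways. Cd8a averaged 5.92 in Ifitm-/- and 6.46 in WT cells (95% interval of the change -1.06 to -0.04, adjusted p = 0.167). Cd8b1, the larger part of the sums, averaged 8.53 in Ifitm-/- and 8.35 in WT cells (adjusted p = 0.643). The part of either cell type in the fall of Ifng was not tested. Nor was the part of the shift in memory and helper T cell markers given above.

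Ltb, which forms the membrane-bound lymphotoxin heterotrimer together with lymphotoxin-α, was the only one of the 10 genes that rose. It was at 11.18 and 11.10 on the Ifitm-/- arrays, against 10.55 and 10.46 on the WT arrays. Both Ifitm-/- arrays were higher than both WT arrays. The change was 0.64 (95% interval 0.40 to 0.87, adjusted p = 0.0303), a 1.55-fold difference with an interval of 1.32-fold to 1.82-fold. B cells are known to express Ltb strongly. On WT replicate 1, which had the highest B cell sum, Ltb was 10.55, against 10.46 on the other WT array. The part of B cells in the rise of Ltb was not tested.

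Tnf lies next to Ltb in the major histocompatibility complex, with Lta, the gene of lymphotoxin-α, on its other side. Tnf was at 7.97 and 7.95 in Ifitm-/- cells, against 8.19 and 8.06 in WT cells. The Ifitm-/- arrays were below the WT arrays, yet the change of -0.16 was not called (95% interval -0.40 to 0.08, adjusted p = 0.332). Lta was at 6.64 and 6.61 in Ifitm-/- cells and 6.49 in both WT samples, a change of 0.13 that was not called (adjusted p = 0.354). The difference between the changes of Ltb and Tnf was not tested. Lst1 and Nfkbil1, the further neighbours on either side of the trio, changed by 0.08 and -0.05 and were not called (adjusted p = 0.87 and 0.819).

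The promoters of the 2 clearly expressed genes that changed, Ifng and Ltb, and of Tnf, the uncalled neighbour of Ltb, are shown as the 250 bases before the RefSeq start of each gene (GRCm38.p6), read 5′ to 3′ on the gene's strand. Of the 10 genes 9 had a sequence in the table used, and Il10 had none. Capitals mark matches on either strand to the NFAT core GGAAA, the AP-1 site TGANTCA, the κB site (GGGA and TTCC set 2 bases apart), the cAMP response element core TGACG and the TATA box TATAAA. Ifng is at chr10:118440796-118441045 on the plus strand, Ltb at chr17:35194257-35194506 on the plus strand and Tnf at chr17:35202008-35202257 on the minus strand.
Ifng: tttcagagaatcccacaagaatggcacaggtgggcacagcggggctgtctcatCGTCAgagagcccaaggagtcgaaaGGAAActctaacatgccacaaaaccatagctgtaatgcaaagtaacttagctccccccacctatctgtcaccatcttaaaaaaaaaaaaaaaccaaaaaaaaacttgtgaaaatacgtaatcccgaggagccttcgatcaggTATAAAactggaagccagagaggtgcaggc
Ltb: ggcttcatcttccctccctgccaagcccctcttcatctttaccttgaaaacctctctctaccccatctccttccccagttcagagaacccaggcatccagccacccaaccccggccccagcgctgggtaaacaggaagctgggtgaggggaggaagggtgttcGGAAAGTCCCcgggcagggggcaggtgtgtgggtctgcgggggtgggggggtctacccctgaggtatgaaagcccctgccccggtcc
Tnf: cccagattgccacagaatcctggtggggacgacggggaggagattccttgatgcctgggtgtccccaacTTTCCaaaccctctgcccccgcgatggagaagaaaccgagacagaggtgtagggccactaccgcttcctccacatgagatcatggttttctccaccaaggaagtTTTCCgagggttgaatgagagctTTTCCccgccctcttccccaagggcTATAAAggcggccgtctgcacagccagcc

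The Ltb window held 1 κB match, a motif found in 1.18% of the 27025 promoters of this length, and the NFAT core match in Ltb lies within it. None of the other 8 cytokine windows held a κB match. The NFAT core is short and occurred in 55.6% of all promoters. Of the 9 cytokine windows 7 held it, with 5 matches in Il4, 4 in Il13, 3 each in Il21 and Tnf, 2 in Il2 and 1 each in Ifng and Ltb, while Il17a and Tgfb1 held 0. An AP-1 match was present in Il17a alone of the 9 and in 6.85% of all promoters. The cAMP response element core was present in Ifng, Il13 and Il17a and in 17.8% of all promoters, and the TATA box in Ifng, Il2, Il13, Il17a and Tnf and in 13% of all promoters. The Tgfb1 window, with none of these motifs, had 75.2% G and C, against 37.6% in Il4. These matches describe the letters of the windows and carry no measure of binding.

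Tgfb1, the gene of the suppressive and Th17-promoting factor, did not differ between the genotypes beyond the spread of the arrays. It was at 10.20 and 10.37 in Ifitm-/- cells, against 10.39 and 10.20 in WT cells, so the ranges overlapped almost wholly. The change was -0.00762 with an interval of -0.31 to 0.30 (adjusted p = 0.976), which allows Ifitm-/- levels from 80.5% to 123.0% of WT. Platelets carry Tgfb1. None of 4 platelet markers was called, with Ppbp at 12.35 in Ifitm-/- and 11.02 in WT cells and Gp9 at 9.67 in Ifitm-/- and 8.28 in WT cells. The markers were uneven, with sums of 4556 and 10367 units in Ifitm-/- cells and 3563 and 2320 units in WT cells. Tgfb1 was 10.37 on the array with the highest platelet sum, Ifitm-/- replicate 2, and 10.39 on WT replicate 1. The part of platelets in these values was not tested.

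The Th2 cytokine genes Il4 and Il13 were dim on all arrays. Il4 was at 5.62 and 5.48 in Ifitm-/- cells, against 5.56 and 5.62 in WT cells, and the arrays overlapped. Its change was -0.04 (95% interval -0.29 to 0.21, adjusted p = 0.823). Il13 was at 5.71 and 5.44 in Ifitm-/- cells, against 5.76 and 5.84 in WT cells, a change of -0.23 (95% interval -0.55 to 0.10, adjusted p = 0.324) with the Ifitm-/- arrays below the WT arrays. Il5, the third cytokine gene of this locus, was at 4.24 in Ifitm-/- and 4.33 in WT cells, near background in both. Basophils and mast cells, which also make IL-4, were looked for through 6 markers, none of them called. Their summed level was 551 and 733 units in Ifitm-/- cells and 398 and 544 units in WT cells, and 5 of the 6 changes were above 0. Fcer1a and Ms4a2 were near background in both genotypes. Cpa3 averaged 7.47 in Ifitm-/- and 6.56 in WT cells, and Kit, which is not particular to these cells, 6.94 in Ifitm-/- and 7.52 in WT cells. The part of these cells in the values of Il4 was not tested.

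Rad50, a DNA repair gene that lies between Il13 and Il5 and is known to harbour the locus control region of the Th2 cytokines, was the single gene called among the 28 distinct neighbours of the cytokine genes, taken as the 2 nearest measured genes on each side. It was at 8.79 and 8.86 in Ifitm-/- cells, against 7.87 and 8.05 in WT cells. This was a change of 0.86 (adjusted p = 0.0231) with no overlap between genotypes. Over all genes 8.57% were called, against 1 of these 28 neighbours. Kif3a, on the other side of Il4, changed by 0.14 and was not called (adjusted p = 0.617). Neighbours were looked up after the values of the cytokine genes had been seen. Mapkapk2, a kinase gene next to Il10, was at 9.13 in Ifitm-/- and 9.73 in WT cells and missed the threshold (change -0.60, adjusted p = 0.0541), while the IL-10 family genes Il19 and Il20, on the other side of Il10, changed by -0.15 and -0.22 (adjusted p = 0.437 and 0.203), both near background. Dyrk2, next to Ifng, changed by -0.26 and was not called (adjusted p = 0.157).

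Il2 and Il21 lie near each other on chromosome 3 and signal through receptors that share the common γ chain. Il2 was at 6.04 and 5.96 in Ifitm-/- cells, against 6.39 and 5.92 in WT cells. WT replicate 1 was the highest, the other arrays were alike, and the change was -0.16 (95% interval -0.64 to 0.32, adjusted p = 0.631). Without WT replicate 1 the change was 0.08. Il21 was at 4.52 and 4.53 in Ifitm-/- cells, against 4.72 and 4.93 in WT cells, all near background. Its change of -0.30 missed the threshold (95% interval -0.59 to -0.02, adjusted p = 0.168).

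Il17a, the signature gene of Th17 cells, was at 6.25 and 6.28 in Ifitm-/- cells, against 6.47 and 6.40 in WT cells. The change of -0.18 was small and not called (95% interval -0.39 to 0.04, adjusted p = 0.255). Its neighbour and relative Il17f was at 5.92 and 5.79 in Ifitm-/- cells, against 6.13 and 6.27 in WT cells, a change of -0.34 that was not called either (adjusted p = 0.124). Neither gene overlapped between the genotypes, which held for 58.7% of all genes as well, 30.8% of them lower.

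**Figure D3:**
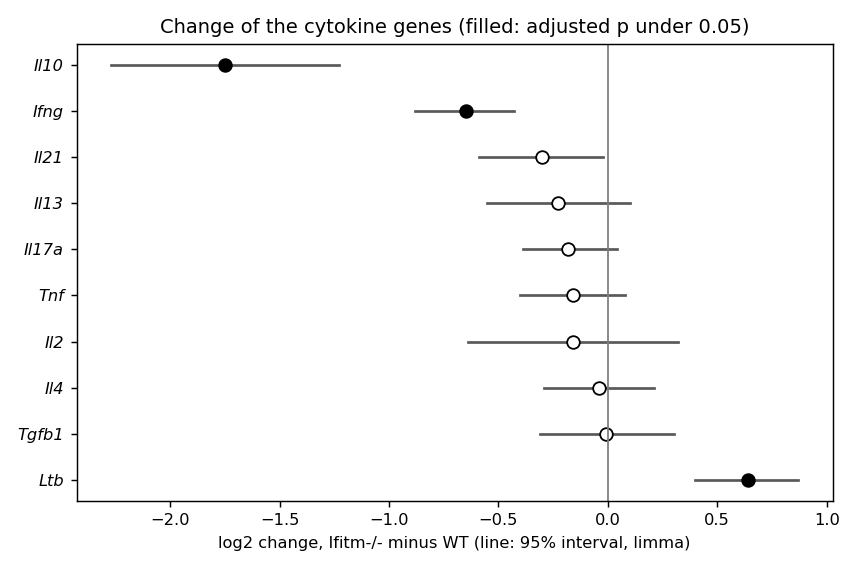
Log2 change of the 10 cytokine genes (x axis, Ifitm-/- minus WT) with the 95% interval from limma, ordered by size; filled circles have an adjusted p under 0.05. Il10 at -1.75, Ifng at -0.65 and Ltb at 0.64 are filled, and the intervals of Il2, Il4, Il13, Il17a, Tnf and Tgfb1 include 0.

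Receptors for these cytokines were mostly lower where they were called. Of 18 measured receptor genes 7 fell and 1 rose, or 44.4%, against 8.57% of all genes called (3.61% lower, 4.96% higher), with a median change of -0.13. Both chains of the interferon-γ receptor fell, Ifngr2 by 1.84 (10.50 and 10.68 in Ifitm-/- cells, against 12.40 and 12.45 in WT cells, adjusted p = 0.0119) and Ifngr1 by 1.23 (adjusted p = 0.0141), so the ligand and both of its receptor chains were lower together. Il4ra, a chain of the IL-4 and IL-13 receptors, fell by 1.07 (adjusted p = 0.0156), although Il4 and Il13 were not called. Il21r fell by 0.89 (9.70 and 9.65 in Ifitm-/- cells, against 10.55 and 10.58 in WT cells, adjusted p = 0.0161). Il2ra, the IL-2 receptor α chain, rose by 0.51 (adjusted p = 0.0379) and the β chain gene Il2rb fell by 0.76 (adjusted p = 0.024). Tnfrsf1b, of the second Tnf receptor, fell by 1.07 (adjusted p = 0.0161), whereas Tnfrsf1a changed by 0.03 (adjusted p = 0.884). Tgfbr2 fell by 0.72 (adjusted p = 0.0213), with Tgfbr1 and Tgfbr3 not called. The chains of the IL-10 receptor were not called, with Il10ra at 8.25 and 8.38 in Ifitm-/- cells, against 8.65 and 8.14 in WT cells, and Il10rb at 9.26 and 9.44, against 9.07 and 8.40. Ltbr, which is known from stromal and myeloid cells, was at 6.00 in Ifitm-/- and 6.18 in WT cells (adjusted p = 0.249).

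Other cytokine genes that T cells can express were mixed. Of 26 measured, 4 fell and 3 rose, or 26.9% against 8.57% of all genes, with a median change of -0.12, and 8 lay near background in both genotypes, among them Il3, Il5, Il6, Il9 and Csf2. Those that rose were Cd40lg, of the costimulatory ligand CD154, with 10.16 and 10.18 in Ifitm-/- cells, against 8.63 and 8.17 in WT cells (adjusted p = 0.018), Flt3l, a growth factor of dendritic cells (0.81, adjusted p = 0.0186), and Osm, of the IL-6 family (0.81, adjusted p = 0.0305). Those that fell were the chemokine gene Xcl1, with 7.94 and 7.88 in Ifitm-/- cells, against 9.53 and 8.99 in WT cells (adjusted p = 0.0342), the death ligand gene Fasl (-0.88, adjusted p = 0.0288), Tnfsf11, of RANKL (-0.63, adjusted p = 0.0375), and Tnfsf8, of CD30L (-0.57, adjusted p = 0.0373).

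Of 31 measured transcription factors that act on cytokine loci, 9 fell and 1 rose (32.3%, against 8.57% of all genes, 3.61% of them lower), with a median change of -0.27. Bhlhe40, which in mouse T cells restrains Il10, was lowest relative to WT, at 7.16 and 7.54 in Ifitm-/- cells, against 10.31 and 10.29 in WT cells (adjusted p = 0.0115). Fosl2, an AP-1 factor, fell by 2.55 (adjusted p = 0.00778), the NF-κB subunit gene Rel by 1.72 (adjusted p = 0.0107) and Rora, a Th17 factor, changed by -1.96 (adjusted p = 0.0131). Irf4, Nfil3, Ahr, Rela and Eomes also fell, and Ikzf1, of the lymphoid factor Ikaros, rose by 0.55 (adjusted p = 0.0332). The factors that define Th1, Th2 and regulatory T cells were not called. Tbx21 changed by 0.03 (95% interval -0.33 to 0.39, adjusted p = 0.916). Gata3 changed by -0.26 (-0.48 to -0.05, adjusted p = 0.133) and Foxp3 by 0.23 (0.02 to 0.43, adjusted p = 0.161), intervals that leave out 0. The study reports Gata3 as significantly lower on these arrays by Student's t-test, and Tbx21 as not different. It names no adjustment for that test, so its threshold is unlike the one used here. Unadjusted, the p of Gata3 in limma was 0.0265, and 25.8% of all genes had an unadjusted p under 0.05. Maf, an activator of Il10 in several helper lineages, was at 9.14 and 9.55 in Ifitm-/- cells, against 9.64 and 9.59 in WT cells (adjusted p = 0.366).

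Cytokine mRNAs are short-lived because proteins bind AU-rich and stem-loop elements in them. Of 11 genes for such proteins and other binders of cytokine mRNA, 2 fell and 1 rose (27.3%, against 8.57% of all genes), with a median change of -0.37. Zc3h12a, of the endonuclease Regnase-1, was at 8.34 and 8.19 in Ifitm-/- cells, against 9.58 and 9.53 in WT cells (adjusted p = 0.0141), Zfp36l2 fell by 0.49 and Rc3h2, of roquin-2, rose by 0.56 (adjusted p = 0.0379 for each). Zfp36, of tristetraprolin, which destabilises Tnf mRNA, was at 10.66 in Ifitm-/- and 11.09 in WT cells and was not called (adjusted p = 0.17). Of 11 genes for the processing and release of these cytokines, 3 fell and 0 rose (27.3%, against 8.57% of all genes), with a median change of 0.09. Most genes of this list act on transforming growth factor-β1. Those that fell were Lrrc32, of GARP, which holds latent Tgfb1 at the surface of regulatory T cells (8.59 and 8.69 in Ifitm-/- cells, against 9.61 and 9.75 in WT cells, adjusted p = 0.0171), the convertase gene Furin, which cleaves its precursor (-0.84, adjusted p = 0.0204), and the integrin gene Itgav, which takes part in its release (-0.53, adjusted p = 0.0411). Tgfb1 itself did not differ beyond the spread of the arrays. Thbs1, which is also a platelet gene, was at 8.19 and 9.59 in Ifitm-/- cells, against 7.93 and 7.45 in WT cells (adjusted p = 0.23). Adam17, of the sheddase that releases Tnf, changed by 0.17 (adjusted p = 0.327).

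**Figure D4:**
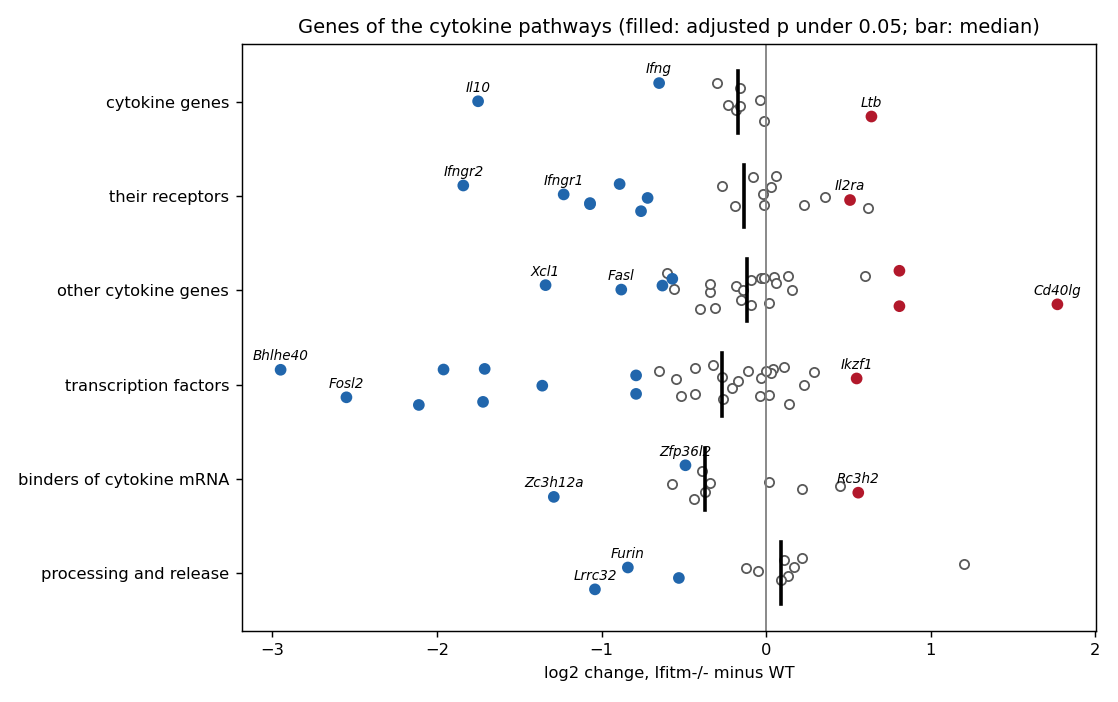
Log2 change (x axis, Ifitm-/- minus WT) of the genes of 6 lists, a circle for each gene, filled where the adjusted p is under 0.05 (blue lower, red higher in Ifitm-/- cells), with the median of each list as a black bar. The lowest and the highest called genes are named; Il10 is lowest among the cytokine genes at -1.75 and Bhlhe40 among the transcription factors at -2.95.

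The genes whose pattern over the 4 arrays was most like that of each called cytokine gene were sought among 13633 genes above the background limit in at least 1 genotype, by the Euclidean distance between log2 profiles centred on their means. For Il10 they were Gadd45b, a stress response gene (distance 0.101), Coq10b (0.215) and Errfi1 (0.228), with changes of -1.71, -1.90 and -1.59. For Ifng they were Zfp869, Zfp868 and Selenon, at 0.0212 to 0.0457, and for Ltb 2700097O09Rik, Pdk2 and H6pd, at 0.0119 to 0.0157. With 4 arrays many genes share such a profile, so the likeness is a description only.

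With any 1 array left out, 0 of the 10 cytokine genes and 0 of all probe sets were called by limma, with 6062 to 9107 probe sets at an unadjusted p under 0.05. The change of Il10 was then between -2.01 and -1.49, that of Ifng between -0.70 and -0.61 and that of Ltb between 0.59 and 0.68.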

How the data were processed

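Total RNA of CD4 T cells was hybridised to 4 arrays, 2 of Ifitm-/- and 2 of WT cells. The values deposited by the authors are RMA intensities on the linear scale (background correction, quantile normalization, probe set summary). The submitters' processing notes name RMA and affy, versions not given in the sources used here. A shift shared by all genes is lost in quantile normalization. Of 34760 probe sets, 21640 carried the name of 1 gene in the platform annotation, 1321 several names and 11799 no name. Gene IDs gave current symbols (21553 found in a GRCm38.p6 gene table). List genes that no probe set named alone were not analysed here.

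Intensities were taken to log2 and lmFit and eBayes were run over all probe sets (limma 3.58.1, R 4.3.3, no covariate, two-sided, Benjamini-Hochberg adjustment over all of them), with 2 residual and 2.39 prior degrees of freedom. The number of arrays limits the precision. A p-value sets the difference between genotypes against a variance drawn from 2 pooled preparations per genotype and from all probe sets. The fit was tested on simulated data. A gene was taken as near background in a genotype where its mean was at or below the 95th percentile of chemosensory receptor probe sets.

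The members and lists were chosen with earlier results of these data known. Genes were named by rule: all 10 members, up to 4 called genes of smallest p per direction of each pathway list, and the 2 most abundant genes of each marker list. Other named genes were chosen after their values were seen. Lists were described by counts and medians, with no set test. The alternatives were other eBayes settings and normalizations, leaving out dim probe sets or those not naming 1 gene, averaging a gene's probe sets, a block for the replicate number (and, added after seeing the data, a crossed one), the methods' t-test (Student's, equal variance, on log2 values), the study's filter (fold over 2, range of 250 units), other background limits, and leaving out each array.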

Additional observations from a re-analysis of the deposited data

How the results depend on the processing

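Direction and call of Il10, Ifng and Ltb were kept with trend and robust eBayes, renewed quantile normalization, centring on the median, dim probe sets left out (which drops Il2, Il4, Il13 and Il21), only probe sets that name 1 gene, and a gene's probe sets averaged. Without an array, 0 cytokine genes were called lower and 0 higher, as were 0 of all probe sets (main value 2930) and 0 genes of the pathway lists (main value 31); 6062 to 9107 probe sets then had an unadjusted p under 0.05 in limma. Changes without an array ran from -2.01 to -1.49 for Il10 (adjusted p = 0.0681 to 0.135), -0.70 to -0.61 for Ifng (0.0912 to 0.157), 0.59 to 0.68 for Ltb (0.0958 to 0.172), -0.40 to 0.08 for Il2, -0.11 to 0.03 for Il4 and -0.10 to 0.09 for Tgfb1, the last 3 turning sign.

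Same-numbered arrays did not deviate together (correlation -0.12 over probe sets, 2 pairs). With 2 pairs this cannot decide whether the numbers pair the samples. With the replicate block 0 cytokine genes, 0 probe sets and 0 pathway genes were called in limma, with 8016 probe sets at an unadjusted p under 0.05; changes were -1.75 for Il10, -0.65 for Ifng and 0.64 for Ltb (adjusted p = 0.0661, 0.0869 and 0.0826). With the numbers crossed, added after seeing the data, 1 cytokine gene was called lower, 0 higher, and 975 probe sets in all. The methods' t-test called 0 cytokine genes after Benjamini-Hochberg adjustment (Il10 -1.75, Ifng -0.65, Ltb 0.64), 0 pathway genes and 4 probe sets. At an unadjusted p it called 6811 probe sets, 47 pathway genes and, besides Il10, Ifng and Ltb, Il17a at -0.18. A fold over 2 with a range of 250 units left 403 probe sets, 15 pathway genes and 0 cytokine genes lower or higher; Il10 spans fewer units. Renewed quantile normalization and median centring turned Il4 to 0.01 and 0, and Tgfb1 to 0.03 and 0.04. At the 99th percentile of the receptors 6 cytokine genes in Ifitm-/- and 5 in WT cells were near background, at the median of all probe sets 5 and 4, and without an array 2 in Ifitm-/- cells and 1 to 2 in WT cells. The cause of these shifts was not tested.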
